A study of Mus musculus with 22 samples.

Results

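The collagen, laminin and integrin genes of the mouse kidney were described across 6 circadian times in wild-type (WT) mice and in mice without the clock gene Clock (KO). Members were taken by gene symbol: every numbered collagen chain, every numbered laminin chain, every integrin chain with a numbered alpha or beta, and Fn1, Postn, Nid1 and Nid2. Of 77 genes with such a symbol, 74 had a mean log2 level of at least 5.2 and were described, among 14002 genes at or above that level. The nearest genes below it were Col28a1 at 5.17 and Itga11 at 5.01, and the nearest above it were Col19a1 at 5.43 and Col4a6 at 5.47. The 74 members comprised 11 fibrillar collagen chains, 6 of type IV, 6 of type VI, 2 multiplexins, 17 other collagen chains, 10 laminin chains, 4 further matrix glycoproteins, 10 integrin alpha chains and 8 integrin beta chains.

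Collagens and laminins are secreted chains that assemble into the matrix around cells. Type IV collagen and laminin form the sheets of the basement membrane, which nidogens link, and the kidney filter is built on such a membrane. Fibrillar collagens and fibronectin fill the interstitium and come largely from stromal cells. Integrins are paired alpha and beta receptors that anchor cells to this matrix, and integrin alpha-v beta-6 on epithelia is known to release latent transforming growth factor beta.

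The study hybridised 22 Affymetrix arrays of the whole-transcript type, 11 per genotype, over 1 cycle at steps of 4 h from ZT0 to ZT20 (zeitgeber time, with ZT0 the former lights-on and ZT12 the former lights-off). The KO mice were clock(-/-) animals of a colony founded by clock(+/-) pairs, and the controls were wild type. All mice, WT and KO alike, had 2 weeks of 12 h light and 12 h dark and then 30 h of constant darkness before they were killed. Each array carried kidney RNA pooled from 2 or 3 mice, with 2 pools at each time except WT at ZT8 and KO at ZT16, which had 1. The labels give the left kidney as the tissue and the whole kidney as the source, and they give neither age nor sex of the mice. No label states that pools came from separate litters, so the p-values rest on the spread among these pools alone, which may be technical. In whole tissue, fewer cells of a type and less RNA per cell cannot be told apart. All levels below are log2 values, and differences between genes in level carry no meaning on this kind of array.

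Array medians lay between 5.88 and 6.01, and the correlation between any pair of arrays over the genes tested was 0.976 to 0.996. The Clock probe set read 8.83 in WT and 8.96 in KO (0.13 ± 0.038, limma adjusted p = 0.0399). Which exons that set covers is not given in the sources used here, so it does not check the deletion. Arntl, with which Clock pairs, differed by 1.01 ± 0.10 (adjusted p = 2.39e-06) and Nr1d1, a direct clock target, differed by -0.55 ± 0.12 (adjusted p = 0.00472). The mean level of 12 proximal tubule markers was 12.29 to 12.35 in WT and 12.30 to 12.43 in KO. That of 10 markers of loop, distal tubule and collecting duct was 10.39 to 10.59 in WT and 10.51 to 10.67 in KO. Genes known to differ between male and female mouse kidney differed between the genotypes: of 11 measured, 7 were lower and 2 higher in KO. Cyp4a12a, a male-typical P450, differed by -1.93 ± 0.33 and Slc7a12, a female-typical transporter, by 2.38 ± 0.30. The part of this in the results below was not tested.

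Sequence upstream of an annotated start is shown for Itgb6, Col8a1 and Col18a1, 3 of the 8 rhythmic members with a promoter entry. The 250 bases upstream of the first listed start of each gene were taken. These 3 were picked by hand, not by a rule applied to the 8. RefSeq (GRCm38.p6) gave promoter entries for 53 of the 74 members. The motifs searched on both strands were the E-box CACGTG, bound by Clock and Arntl, the D-box TTATGTAA, the half-site AGGTCA of nuclear receptors such as Nr1d1, and the GC box GGGCGG. Capitals mark a motif match on either strand, and each sequence runs 5′ to 3′ on the strand of its gene, here the minus strand in all 3.
Itgb6, chr2:60722604-60722853: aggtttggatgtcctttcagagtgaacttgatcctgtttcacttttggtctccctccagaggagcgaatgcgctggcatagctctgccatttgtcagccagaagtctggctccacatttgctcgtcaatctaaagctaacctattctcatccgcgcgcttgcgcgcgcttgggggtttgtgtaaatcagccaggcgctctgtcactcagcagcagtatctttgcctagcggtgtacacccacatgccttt
Col8a1, chr16:57754738-57754987: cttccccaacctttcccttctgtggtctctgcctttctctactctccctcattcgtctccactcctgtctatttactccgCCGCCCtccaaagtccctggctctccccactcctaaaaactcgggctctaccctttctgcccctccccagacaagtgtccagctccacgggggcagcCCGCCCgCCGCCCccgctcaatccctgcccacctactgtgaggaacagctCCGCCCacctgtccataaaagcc
Col18a1, chr10:77166531-77166780: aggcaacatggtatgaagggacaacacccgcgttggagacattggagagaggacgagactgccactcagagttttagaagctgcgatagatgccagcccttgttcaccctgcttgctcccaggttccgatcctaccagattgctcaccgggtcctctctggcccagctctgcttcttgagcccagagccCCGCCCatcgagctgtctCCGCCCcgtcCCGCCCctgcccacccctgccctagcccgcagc
The Itgb6 window held none of the 4 motifs, whereas the Col8a1 window held 4 GC boxes and the Col18a1 window 3. Over the 53 members with an entry, 0 windows held the E-box, against 6.02% of all 32851 windows of that length, and 0 held the D-box, against 0.819%. The half-site was found in 9 of the 53 (all windows: 14%) and the GC box in 29 (all windows: 32.7%). A member was counted once if any of its windows held the motif, whereas the shares are per window. A gene with several annotated starts has several windows, so counts and shares are not in like units. They cannot tell whether there is an excess or a lack. A match is a description of letters, and no match says only that these letters are not in this window.

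Between genotypes, matrix receptors and basement membrane genes made up most of the members that differed. Averaged over the cycle, 9 members were higher in KO and 1 was lower. The 9 were the integrin chains Itga8, Itga6 and Itgb6, the type IV collagen chains Col4a1, Col4a2, Col4a3, Col4a4 and Col4a5, and the nidogen Nid2. The 1 lower member was Col27a1, a fibrillar collagen chain. The differences came from a limma fit of a mean and a 24 h wave per genotype, with a call where the Benjamini-Hochberg adjusted p over all 14002 genes was under 0.05. The 10 called members were 13.5% of the 74, with 9.11% called among all genes. The 9 higher were 12.2%, with a background of 5.22%, and the 1 lower was 1.35%, with a background of 3.89%. Across all 74 the median difference was -0.0012, against 0.0038 for all genes, and 37 had the higher fitted mean in KO (50%, all genes 51.6%). Over all genes the calls were 731 higher and 545 lower, and 1105 and 343 once each array's median was subtracted. In the members that scaling gave 11 higher and 1 lower. In 0 of the 74 did the 11 WT arrays and the 11 KO arrays separate without overlap, as they did in 0.136% of all genes.

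**Figure D1:**
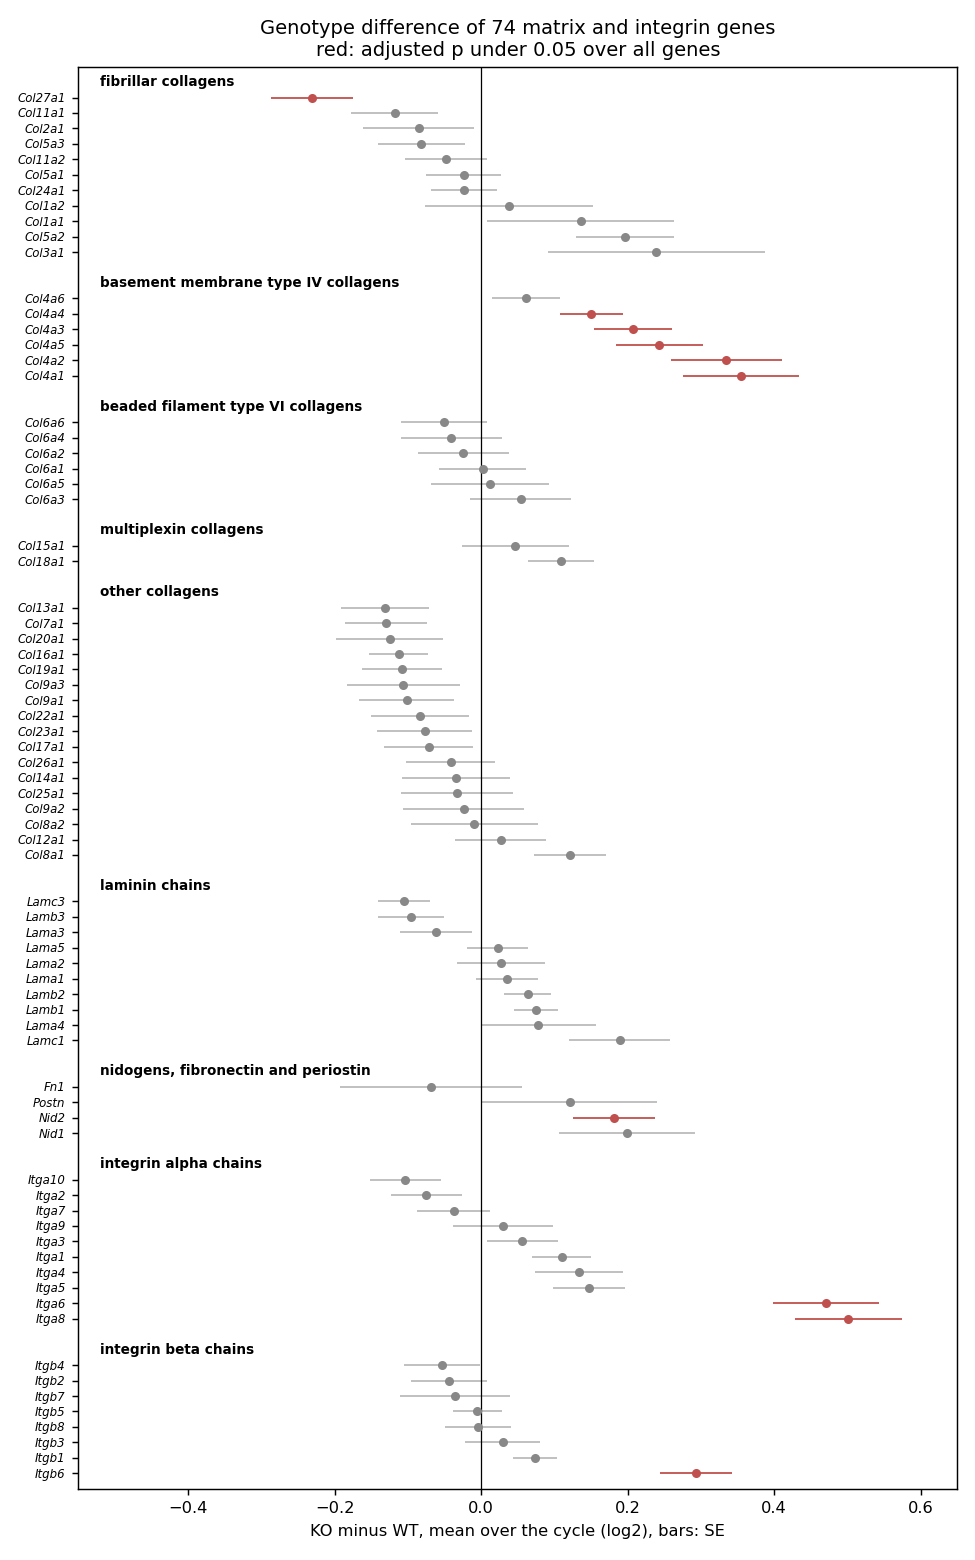
KO minus WT difference of the mean over the cycle (log2, horizontal axis) for each of the 74 members, grouped by role; points are limma estimates from 11 WT and 11 KO arrays, bars are standard errors and red marks an adjusted p under 0.05. The red points are 5 of the 6 type IV chains, Itga6, Itga8, Itgb6 and Nid2 to the right of 0 and Col27a1 to the left.

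Itgb6 encodes the beta-6 chain, which pairs with alpha-v alone. In WT its arrays read 10.52 and 10.71 (ZT0), 10.33 and 10.60 (ZT4), 10.13 (ZT8), 9.53 and 9.60 (ZT12), 9.87 and 9.98 (ZT16), 10.44 and 10.34 (ZT20). In KO they read 10.72 and 10.59 (ZT0), 10.41 and 10.54 (ZT4), 10.19 and 10.25 (ZT8), 10.21 and 10.02 (ZT12), 10.62 (ZT16), 10.71 and 10.80 (ZT20). The WT arrays at ZT12 and ZT16 were the lowest of all and lay below every KO array, while at ZT0, ZT4 and ZT8 the genotypes lay close together. The WT wave had an amplitude (mean to peak) of 0.50 ± 0.048, a 2.00-fold range from trough to peak, with the fitted peak at 0.435 h (limma adjusted p = 4.9e-06). The KO wave had an amplitude of 0.31 ± 0.049, a 1.54-fold range, with the fitted peak at 21.7 h (adjusted p = 0.00396). The mean was higher in KO by 0.29 ± 0.049, or 1.23-fold (adjusted p = 0.000549). The test of the difference between the waves gave an unadjusted p of 0.000362 and an adjusted p of 0.181, so a difference in rhythm was not called. Itgb6 had been singled out as rhythmic from these data, so its rhythm is no independent finding. The mean difference and both rhythm calls held in all 22 fits with 1 array left out. Without both KO ZT20 pools the KO rhythm was no longer called (amplitude 0.30, adjusted p = 0.11).

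Itgav, the alpha-v chain that Itgb6 needs as its partner, is letter-named and no member. Its WT arrays lay between 10.26 and 10.50 and its KO arrays between 10.26 and 10.51. The genotype difference was 0.033 ± 0.032 (adjusted p = 0.528), and the WT amplitude of 0.098 ± 0.032 did not pass the test (adjusted p = 0.157). The beta chains that can share alpha-v showed no called difference: Itgb5 differed by -0.0056 ± 0.033 (95% interval -0.075 to 0.064), Itgb8 by -0.0045 ± 0.046 (-0.099 to 0.09) and Itgb3 by 0.029 ± 0.051 (-0.077 to 0.14).

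Itga6, the alpha-6 chain of laminin receptors, had the largest fitted WT amplitude among the 74. In WT its arrays read 9.84 and 9.92 (ZT0), 9.43 and 9.91 (ZT4), 8.84 (ZT8), 8.92 and 8.79 (ZT12), 9.62 and 9.69 (ZT16), 10.01 and 9.84 (ZT20). In KO they read 10.23 and 9.81 (ZT0), 9.52 and 9.85 (ZT4), 9.58 and 9.51 (ZT8), 9.79 and 9.82 (ZT12), 10.34 (ZT16), 10.29 and 10.45 (ZT20). The 3 WT arrays at ZT8 and ZT12 lay far below every other array of either genotype, and at ZT0 and ZT4 the genotypes overlapped. The WT wave had an amplitude of 0.59 ± 0.071, a 2.27-fold range, with the peak at 22 h (adjusted p = 0.000133). In KO the amplitude was 0.43 ± 0.074 with the peak at 19.0 h (adjusted p = 0.00763). The KO mean was higher by 0.47 ± 0.072, 1.39-fold (adjusted p = 0.000237). The waves were not called different (unadjusted p = 0.00143, adjusted p = 0.309). At ZT12 alone the difference was 0.95 ± 0.16, 1.93-fold (adjusted p = 0.0244). Itga6 was the 1 member called at that time, 1.35% of the 74 against 0.121% of all genes. That call was lost without any 1 of the 4 arrays at ZT12. The KO rhythm was lost without KO ZT20 pool 2 (highest adjusted p over the 22 fits 0.0563) and without both KO ZT20 pools (adjusted p = 0.222). Itgb4, the beta chain that pairs with alpha-6 in hemidesmosomes, differed by -0.054 ± 0.052 (adjusted p = 0.534), and Itgb1, the common beta chain, by 0.073 ± 0.03 (adjusted p = 0.135).

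Itga8 encodes the alpha-8 chain of mesangial and stromal cells, and nephronectin (Npnt) is its ligand in the kidney. In WT the Itga8 arrays read 7.98 and 8.03 (ZT0), 7.93 and 8.37 (ZT4), 8.10 (ZT8), 7.94 and 7.71 (ZT12), 7.23 and 7.52 (ZT16), 7.47 and 7.20 (ZT20). In KO they read 8.66 and 8.19 (ZT0), 8.28 and 8.59 (ZT4), 8.29 and 8.41 (ZT8), 8.14 and 8.17 (ZT12), 7.99 (ZT16), 8.30 and 8.51 (ZT20). The WT arrays at ZT16 and ZT20 were the lowest, and the genotypes overlapped at ZT4 and at no other time. The KO mean was higher by 0.50 ± 0.073, 1.42-fold (adjusted p = 0.000131). The WT wave had an amplitude of 0.46 ± 0.075 with the peak at 5.53 h (adjusted p = 0.0019), and the KO amplitude of 0.18 ± 0.072 did not pass (adjusted p = 0.424). The difference between these waves was not called (adjusted p = 0.451). At ZT20 the KO level was higher by 1.07 ± 0.18, 2.1-fold (adjusted p = 0.00718). Npnt, no member itself, ranged between 8.89 and 9.94 in WT and between 9.52 and 10.62 in KO. It was higher in KO by 0.60 ± 0.059, 1.52-fold (adjusted p = 1.45e-06). Npnt was also rhythmic in WT (amplitude 0.47 ± 0.058, peak 23.0 h, adjusted p = 0.000128) and in KO (amplitude 0.39 ± 0.06, peak 20.1 h, adjusted p = 0.00363). The fitted WT peaks of receptor and ligand thus stood hours apart, while both were higher in KO.

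**Figure D2:**
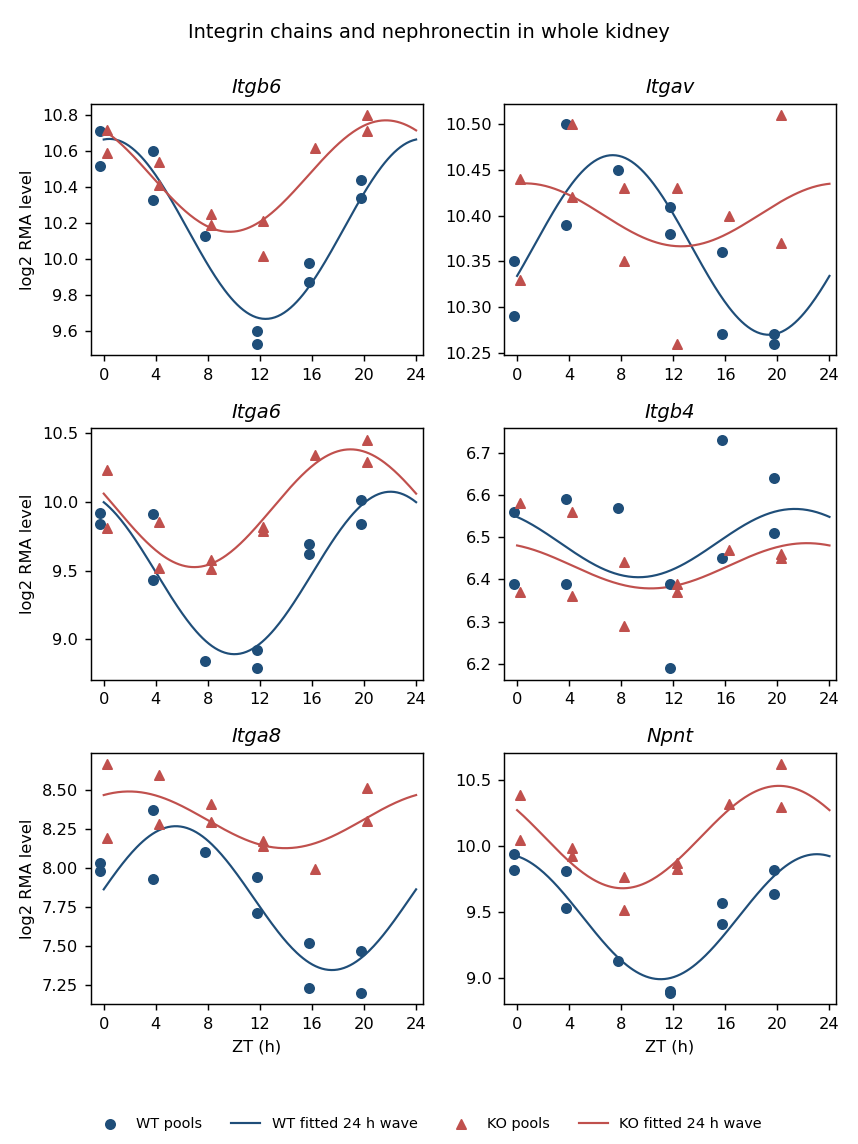
Level (log2 RMA, vertical axes differ between panels) against ZT in h for the members Itgb6, Itga6, Itgb4 and Itga8 and for Itgav and Npnt; circles are WT pools, triangles KO pools, and lines are the fitted 24 h waves. WT Itgb6 falls to 9.53 and 9.60 at ZT12, WT Itga6 to 8.92 and 8.79, and the KO pools of both stay higher there.

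Of the other 8 integrin alpha chains, 0 were called in any test. Itga5, the fibronectin receptor chain, was higher in KO at 6 of 6 times by 0.15 ± 0.049 without passing (unadjusted p = 0.00698, adjusted p = 0.0653). Itga1, a collagen receptor chain, differed by 0.11 ± 0.04 (adjusted p = 0.092), and the leukocyte chain Itga4 by 0.13 ± 0.06 (adjusted p = 0.172). Itga3, which pairs with Itgb1 in the podocyte, differed by 0.056 ± 0.048 (95% interval -0.045 to 0.16). The remaining 4, Itga2, Itga7, Itga9 and Itga10, lay between -0.10 and 0.029. Of the 7 beta chains beside Itgb6, 0 were called.

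Of the 6 type IV collagen chains, 5 were higher in KO and 0 lower. Col4a1 and Col4a2 form the network found in all basement membranes, and Col4a3, Col4a4 and Col4a5 form the network of the mature glomerular filter. In WT the Col4a1 arrays read 8.97 and 8.82 (ZT0), 8.70 and 8.96 (ZT4), 8.61 (ZT8), 8.43 and 8.25 (ZT12), 8.55 and 8.43 (ZT16), 8.79 and 8.43 (ZT20). In KO they read 9.39 and 8.73 (ZT0), 8.75 and 8.98 (ZT4), 8.75 and 8.54 (ZT8), 8.76 and 8.73 (ZT12), 8.91 (ZT16), 9.38 and 9.72 (ZT20). KO arrays at ZT20 and KO ZT0 pool 1 were the highest of all, at 9.38 or above, and the 2 KO pools at ZT0 lay far apart. The mean of Col4a1 was higher in KO by 0.35 ± 0.079, 1.28-fold (adjusted p = 0.00651), and that of Col4a2 by 0.33 ± 0.076, 1.26-fold (adjusted p = 0.00731). Col4a2 ranged from 8.37 to 9.0 with a median of 8.63 in WT and from 8.66 to 9.62 with a median of 8.87 in KO.

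Among the filter chains, Col4a3 ranged from 8.80 to 9.35 with a median of 9.02 in WT and from 8.95 to 9.61 with a median of 9.22 in KO. Its difference was 0.21 ± 0.053 (adjusted p = 0.0163). Col4a5 ranged from 7.27 to 7.69 with a median of 7.42 in WT and from 7.51 to 8.15 with a median of 7.58 in KO, a difference of 0.24 ± 0.059 (adjusted p = 0.0119). Col4a4 differed by 0.15 ± 0.044 (adjusted p = 0.033). Of the 22 fits with 1 array left out, 9 no longer called Col4a4. Ranges of both genotypes overlapped for every chain. Col4a6, which forms a separate network with Col4a5, differed by 0.061 ± 0.046 (95% interval -0.035 to 0.16, adjusted p = 0.422). In the RefSeq annotation the 6 genes lie as 3 neighbouring pairs, Col4a1 beside Col4a2, Col4a3 beside Col4a4 and Col4a5 beside Col4a6, with 0 genes between the members of a pair. Both genes of the first and second pair were called, and 1 of the third.

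In KO 4 type IV chains followed a 24 h wave. Col4a1 had an amplitude of 0.38 ± 0.08 with the peak at 20.5 h (adjusted p = 0.0218). Col4a2 had 0.35 ± 0.077 at 20.3 h (adjusted p = 0.0319). Col4a3 had 0.24 ± 0.054 at 20.2 h (adjusted p = 0.0382) and Col4a4 0.19 ± 0.044 at 20.4 h (adjusted p = 0.0453). In WT the same 4 had amplitudes of 0.26, 0.22, 0.17 and 0.13, and none passed (adjusted p = 0.0878 to 0.136). The difference between the waves was not called for any of them (adjusted p = 0.479 to 0.591), so a rhythm particular to KO was not shown. With 1 array left out, the KO rhythm was lost in 4 of 22 fits for Col4a1, 7 for Col4a2, 8 for Col4a3 and 13 for Col4a4.

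These results rested in good part on KO ZT20. At that time 8 members were called, all higher in KO: Col4a1 by 0.94 ± 0.19 (1.92-fold, adjusted p = 0.0205), Col4a2 by 0.81 ± 0.19, Col4a3 by 0.53 ± 0.12, Col4a4 by 0.42 ± 0.10, Col4a5 by 0.57 ± 0.12, Itga8, the fibrillar chain Col5a2 by 0.60 ± 0.12 and the laminin chain Lamc1 by 0.65 ± 0.15. That was 10.8% of the 74, against 1.74% of all genes. Without KO ZT20 pool 2 or without WT ZT20 pool 2, 0 members were called at that time. Other left-out arrays, some of other times, also ended calls there: of the 22 fits, 15 lost Col4a2, 14 Col4a4, 11 Lamc1 and 8 Col4a3, while Col4a1 and Itga8 were lost in 2 each and Col4a5 and Col5a2 in 3 each. Without both KO ZT20 pools the difference of the cycle means was 0.26 for Col4a1 (adjusted p = 0.0591), 0.27 for Col4a2 (0.072), 0.17 for Col4a3 (0.126), 0.13 for Col4a4 (0.153) and 0.17 for Col4a5 (0.109), so 0 of the 5 stayed called. The 3 members that did were Itga6 (0.47, adjusted p = 0.00245), Itga8 (0.45, adjusted p = 0.00244) and Itgb6 (0.29, adjusted p = 0.00566). Without KO ZT20 pool 2 the KO rhythm calls fell from 7 members to 1, Itgb6.

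**Figure D3:**
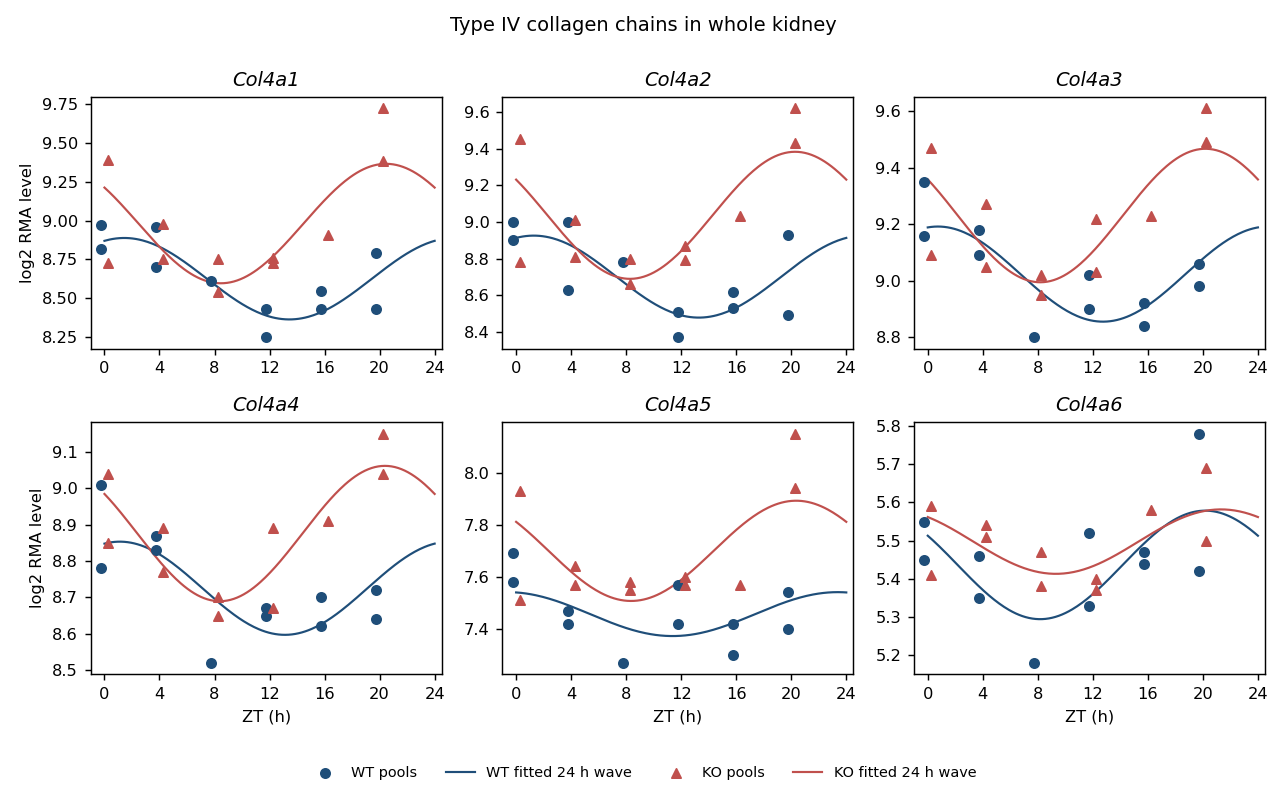
Level (log2 RMA, vertical axes differ between panels) against ZT in h for the 6 type IV collagen chains; circles are WT pools, triangles KO pools and lines the fitted 24 h waves. The 2 KO pools at ZT20 and KO ZT0 pool 1 are the highest 3 points of Col4a1 to Col4a5, with Col4a1 at 9.38, 9.72 and 9.39.

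Lamc1 read 8.39 and 8.06 in the WT pools and 8.79 and 8.96 in the KO pools at that time, and Col5a2 6.73 and 6.61 and 7.35 and 7.17. The pools at ZT20 did not overlap in either gene, which adds nothing to the calls by which the genes were picked. Over all arrays the ranges of WT and KO overlapped in both genes. Over the whole cycle Col5a2, which joins type I fibrils, had a difference of 0.20 ± 0.067 that did not pass (adjusted p = 0.0694).

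At ZT12, beside Itga6, 5 members had an unadjusted p under 0.05. Higher in KO among these were Itgb6 by 0.55 ± 0.11 (adjusted p = 0.0635), Itga4 by 0.40 ± 0.15 (adjusted p = 0.525) and Col18a1 by 0.26 ± 0.094 (adjusted p = 0.475), and lower were Col20a1 and Col6a6. At ZT0, ZT4, ZT8 and ZT16, with 0 members called by limma, 1 member had an unadjusted p under 0.05 at ZT0 (Itga8, 0.41 ± 0.18, unadjusted p = 0.0334), 1 at ZT4 (Lamc3, -0.18 ± 0.083, unadjusted p = 0.0451), 2 at ZT8 (Itga6 and Col6a4) and 5 at ZT16 (Col4a3, Itga6, Itga8, Itgb6 and Lama1). By adjusted p, few of all genes were called at these times either: 0.0286% at ZT0, 0.00714% at ZT4, 0.0286% at ZT8 and 0.0143% at ZT16. The share of all genes with an unadjusted p under 0.05 was not counted at any time. The unadjusted member counts, that at ZT12 included, thus have no background and cannot be read as an excess.

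Some cell markers also differed between the genotypes. Of 10 endothelial markers, 4 were called higher in KO (Plvap by 0.33 ± 0.043, Pecam1 by 0.30 ± 0.059, Cdh5 by 0.27 ± 0.056 and Tie1 by 0.13 ± 0.041) and 0 lower. In all 8 of the 10 had the higher fitted mean in KO, while Kdr (0.975-fold) and Flt1 (0.952-fold) had the lower. The mean of the list ran from 8.83 to 9.07 in WT and from 8.94 to 9.18 in KO. Of 6 podocyte markers, 1 was higher (Ptpro by 0.17 ± 0.04), with list means of 7.17 to 7.41 in WT and 7.25 to 7.48 in KO. Of 12 stromal and smooth muscle markers, 1 was lower (Dpt by -0.35 ± 0.10), and the list means of 7.60 to 7.95 in WT and 7.56 to 7.98 in KO covered nearly one range. Of 10 markers of loop, distal tubule and collecting duct, 5 were higher (Pvalb, Calb1, Scnn1g, Atp6v1b1 and Slc4a1) and 1 lower (Umod), with a median difference of 0.14, against 0.12 for the endothelial list. Of 12 proximal tubule markers, 3 were higher (Slc5a2, Slc5a12 and Gatm) and 1 lower (Slc22a6). Of 8 tubular injury markers, Fgb (1.86-fold) and Fgg (2.63-fold) were higher and Havcr1 lower. These values have no true zero, so absence of a marker cannot be read from them, and the part of cell makeup in the collagen difference was not tested.

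The 3 arrays that were highest in Col4a1 to Col4a5, both KO ZT20 pools and KO ZT0 pool 1, were also the lowest 3 of all 22 in Cyp4a12a, Slco1a1, Azgp1 and Cyp7b1, which are known to differ between the sexes in mouse kidney. Cyp4a12a read 5.02 and 4.79 in the KO pools at ZT20 and 6.07 in KO ZT0 pool 1, and the other 19 arrays read 6.92 to 10.19. Slco1a1, an organic anion transporter, read 6.30 and 5.18 and 8.15 in the same arrays, and the other 19 read 8.96 to 11.13. Over the list of 11 sex-dependent genes the mean level ran from 9.74 to 10.66 in WT and from 8.09 to 10.60 in KO, and 7 of its genes were rhythmic in KO. The proliferation gene Mki67 was highest in KO ZT20 pool 2 (7.67) and KO ZT0 pool 1 (7.20), as was Top2a. The other KO ZT20 pool, pool 1, did not share this: Mki67 stood at -0.42 and Top2a at -0.52 from their fitted waves. Of the 14 proliferation genes 0 were called for genotype, and the list mean ran from 5.85 to 6.58 in WT and from 5.83 to 7.16 in KO. The part of sex-dependent and proliferation genes in the type IV difference was not tested.

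Beside type IV collagen, the basement membrane holds nidogens and laminins, and of these Nid2 alone was called for its mean over the cycle. Nid2, which joins laminin to type IV collagen, was higher in KO by 0.18 ± 0.056 (adjusted p = 0.0453). It ranged from 7.30 to 7.83 with a median of 7.41 in WT and from 7.48 to 8.20 with a median of 7.55 in KO, and 15 of the 22 fits with 1 array left out no longer called it. Nid1 had a difference of 0.20 ± 0.092 that did not pass (adjusted p = 0.183). Of 10 laminin chains, 0 were called for genotype mean or rhythm. Lamc1, the gamma chain of most kidney laminins, differed by 0.19 ± 0.069 over the cycle (adjusted p = 0.0898). Lamb1 differed by 0.074 ± 0.03 (95% interval 0.012 to 0.14), and Lama5 and Lamb2, chains of the mature filter, by 0.022 ± 0.042 (-0.065 to 0.11) and 0.063 ± 0.032 (-0.0039 to 0.13). Lamc3 was lower in KO at 6 of 6 times, with a difference of -0.11 ± 0.035, without passing (adjusted p = 0.0653).

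Among the 11 fibrillar collagens 1 was called. Col27a1, a small fibrillar chain of cartilage and epithelia, ranged from 6.98 to 7.78 with a median of 7.39 in WT and from 7.02 to 7.32 with a median of 7.14 in KO. Its mean was lower in KO, at -0.23 ± 0.056 or 0.852-fold (adjusted p = 0.0112). The WT arrays at ZT8 (7.39), ZT12 pool 2 (7.61), ZT16 (7.78 and 7.51) and ZT20 (7.46 and 7.72) lay above every KO array. WT ZT12 pool 1 and the highest KO array both read 7.32. The WT wave had an amplitude of 0.24 ± 0.057 with the peak at 16.4 h (adjusted p = 0.0278), and the KO amplitude was 0.044 ± 0.057 (adjusted p = 0.941). The WT rhythm was lost without WT ZT4 pool 2 or WT ZT16 pool 1 (adjusted p up to 0.144) and with WT fitted alone (adjusted p = 0.103). The genotype call was lost without both KO ZT20 pools (adjusted p = 0.0574). Col3a1, Col1a1 and Col1a2, the main chains of interstitial fibrils, differed by 0.24 ± 0.15, 0.14 ± 0.13 and 0.038 ± 0.11, with adjusted p of 0.326, 0.522 and 0.861. Their 95% intervals were wide, -0.07 to 0.55 for Col3a1 and -0.13 to 0.40 for Col1a1, and single arrays of a group lay far apart. Fn1 differed by -0.068 ± 0.12 and Postn, a matricellular protein of remodelling stroma, by 0.12 ± 0.12, and neither passed. Of 6 type VI chains, the beaded filaments around cells, 0 were called, with differences from -0.051 for Col6a6 to 0.054 for Col6a3. A second, dimmer probe set of Col6a6 gave -0.069 and was not called either.

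The 17 other collagens, which include the transmembrane, network-forming and fibril-associated chains, held 0 genotype calls. Differences ran from -0.13 for Col13a1, a transmembrane collagen, to 0.12 for Col8a1. Of the 17, 15 had the lower mean in KO, while 51.6% of all genes had the higher. Many of the 17 varied together from array to array, as described below, so the 15 are not independent. Among those with the smallest p were Col16a1 at -0.11 ± 0.04 (unadjusted p = 0.0109, adjusted p = 0.0846) and Col7a1, the anchoring fibril of epithelia, at -0.13 ± 0.056 (adjusted p = 0.155). Col14a1, a fibril-associated chain, differed by -0.035 ± 0.074 (95% interval -0.19 to 0.12). Col12a1, of the same class, differed by 0.027 ± 0.062 (-0.10 to 0.16).

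Over the day, 6 members were rhythmic in WT, 8.11% of the 74 with 6.44% called among all genes. Beside Itgb6, Itga6, Itga8 and Col27a1 these were Col8a1 and Col18a1. In KO 7 were rhythmic, 9.46% with a background of 2.46%: Itgb6, Itga6, Col8a1 and the 4 type IV chains. Called in both genotypes were 3 members, Itgb6, Itga6 and Col8a1 (4.05%, all genes 1.12%). Col8a1, a short-chain collagen of vessel walls, read 7.08 and 6.90 at ZT0 and 6.62 and 6.39 at ZT12 in WT, and 7.23 and 6.90 and 6.58 and 6.75 in KO. Its amplitude was 0.24 ± 0.048 in WT (peak 0.572 h, adjusted p = 0.00851) and 0.22 ± 0.048 in KO (peak 22.6 h, adjusted p = 0.029). The WT call was lost without WT ZT12 pool 2 (adjusted p = 0.0517). The KO call was lost in 7 of the 22 fits with 1 array left out, each time a KO array, and with array medians subtracted (adjusted p = 0.0682). Col18a1, the basement membrane collagen that gives rise to endostatin, had a WT amplitude of 0.17 ± 0.045 (peak 3.16 h, adjusted p = 0.0485). Of the 22 fits with 1 array left out, 14 no longer called it. Its KO amplitude was 0.16 ± 0.045 with the peak at 21.2 h (adjusted p = 0.0965). Col15a1, the other multiplexin, was not called in either genotype.

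The waves of the 2 genotypes were compared by a test of the wave difference itself. By limma 0 members were called by adjusted p (all genes 0.0429%). Of the 74, 13 had an unadjusted p under 0.05, with Itgb6, Itga6 and Itga8 among them. The share of all genes at that unadjusted threshold was not counted, so the 13 cannot be read as an excess. The fitted KO peak of Itgb6 stood -2.76 h from the WT peak, that of Itga6 -3.08 h and that of Col8a1 -1.98 h, where a negative value is earlier in KO. Since no wave difference was called, these shifts remain fitted values. The median amplitude over the 74 was 0.11 in WT and 0.11 in KO, against 0.087 and 0.068 over all genes. The members also scattered more around their waves, with a median residual SD of 0.15 against 0.11.

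**Figure D4:**
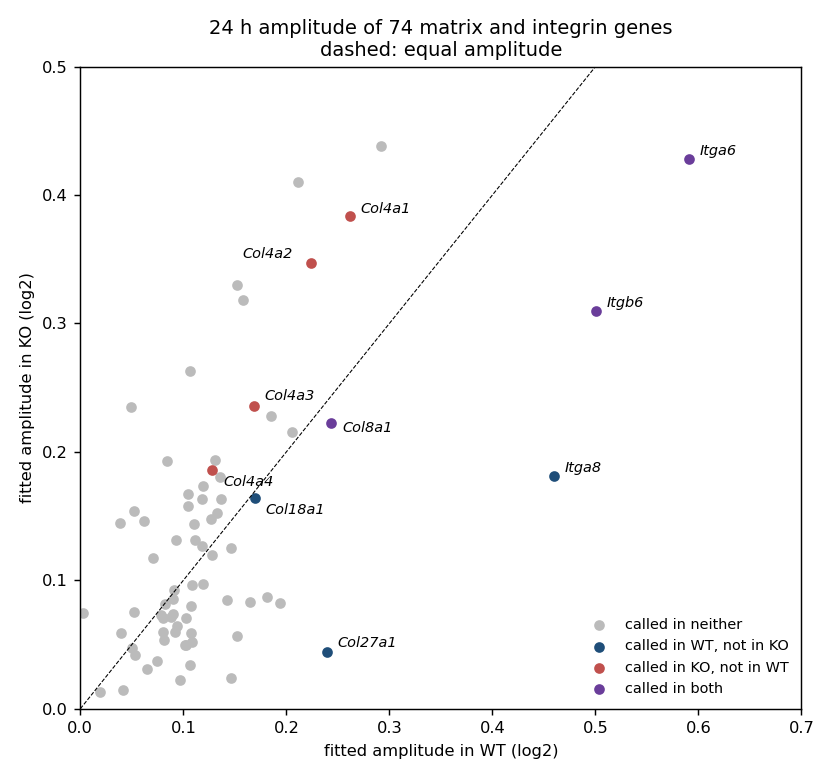
Fitted 24 h amplitude (log2) in WT (horizontal axis) and KO (vertical axis) of the 74 members; colours mark adjusted p under 0.05 in either genotype and the dashed line is equal amplitude. Itga6, Itgb6, Itga8 and Col27a1 lie below the line and the 4 type IV chains above it, but no difference between waves was called.

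Beyond genotype and time, the members varied together from array to array. After the fitted waves were removed, 1 component held 56.1% of the residual variance of the 74, and the component of all genes held 27.9% of theirs. Both components ran nearly in parallel over the 22 arrays (r = 0.903, a description, since both come from the same arrays). The members with the strongest weights were Col3a1, Fn1, Col1a1, Postn, Col1a2 and Nid1, genes of stroma and of the basement membrane link, and they carried 29.5% of the residual variance. Without these 6, which were picked by their weights, the first component still held 48.1%. In all, 29 members had a correlation with the component over 0.5 and 23 one below -0.5. The share of all genes past these cuts was not counted, so the counts are not shown to be particular to the members. At the opposite end stood Col9a2, Col8a2, Col9a3, Col25a1 and Col2a1. Weight and mean reading of a member went together over the 74 (r = 0.514, a description), though readings do not compare amounts between genes. This did not hold for each member: Postn had a mean of 5.62 and Col9a2 one of 7.06. Itgb6 followed the component little (r = 0.242), while Itga8 (r = 0.876) and Col4a1 (r = 0.879) followed it closely.

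A few arrays stood far out on this pattern. KO ZT0 pool 2 had the lowest mean residual of the 6 genes, -0.61, and KO ZT20 pool 2 the highest, 0.48. WT ZT20 pool 2 stood at -0.39 and KO ZT0 pool 1 at 0.33. Col3a1, for example, read 9.33 and 8.11 in the KO pools at ZT0, a gap of more than 1 unit within 1 group, and 9.04 and 9.39 in those at ZT20. In the same arrays proliferation genes had mean residuals of -0.52 (KO ZT0 pool 2) and 0.73 (KO ZT20 pool 2), over 14 measured genes. Sex-dependent genes moved the other way, 0.95 and -0.73, over 11 genes. Stromal markers stood at -0.20 and 0.18, and proximal tubule markers at 0.0094 and -0.024. Their part in the matrix pattern was not tested. The call counts that follow have no share of all genes beside them, so they are not shown to be particular to the members. Leaving out KO ZT0 pool 2 raised the members called for genotype from 10 to 16 and the KO rhythm calls from 7 to 14, and lowered the share on the first component to 49.6%.

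**Figure D5:**
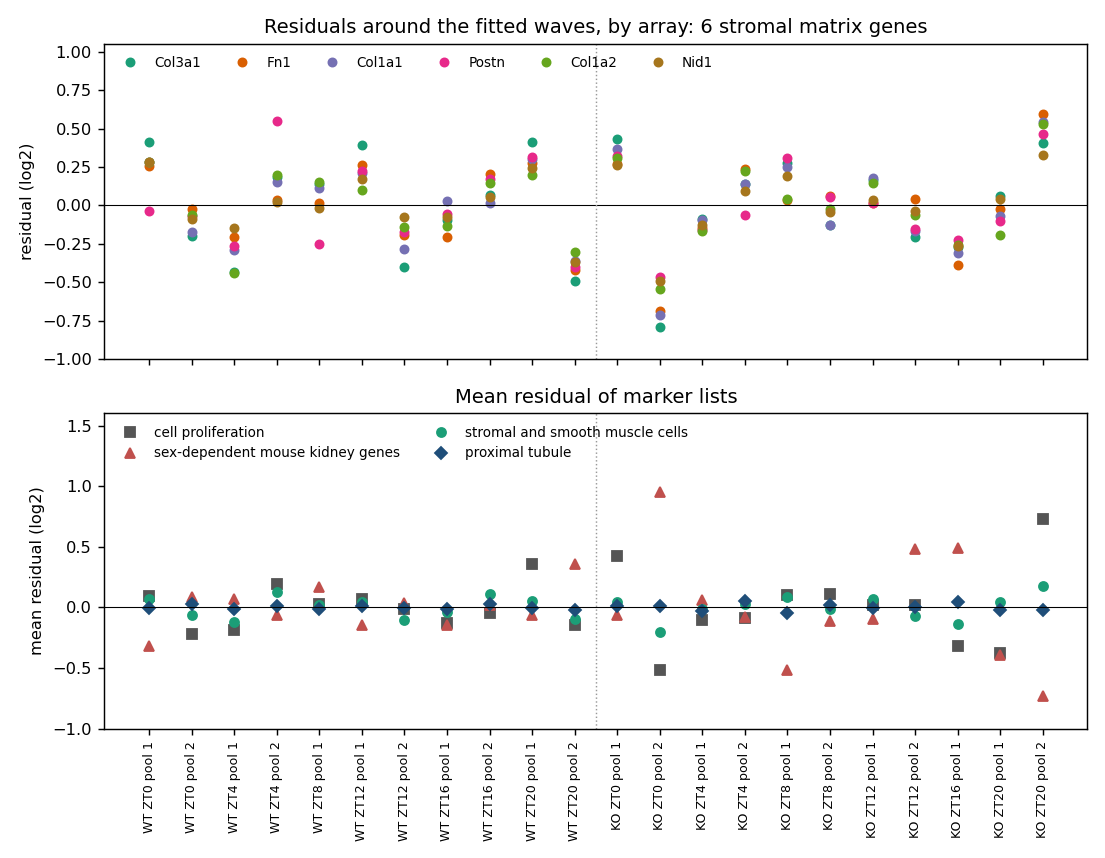
Residuals around the fitted waves (log2, vertical axes) for each of the 22 arrays (horizontal axis, WT left of the dotted line, KO right); the upper panel shows 6 matrix genes and the lower panel the mean of 4 marker lists. The 6 genes lie together within most arrays, lowest in KO ZT0 pool 2 and highest in KO ZT20 pool 2, where the proliferation list reaches 0.73.

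Partner chains, and some members of one matrix (such as Nid1 with Nid2 or Col3a1 with Fn1), were compared by the correlation of their residuals over the 22 arrays, in 20 pairs with permutation tests (100000 draws, two-sided) adjusted over the pairs. Col1a1 and Col3a1 gave r = 0.969 and rho = 0.977 (permutation p 1e-05 and 1e-05, adjusted 3.33e-05 and 2.86e-05), where 1e-05 is the smallest p such draws can give. Without the 2 arrays farthest from the median of Col1a1 r was 0.972, and it was 0.956 within pool 1 and 0.982 within pool 2. Col4a1 and Col4a2 gave r = 0.949 and rho = 0.941 (permutation p 1e-05 and 1e-05, adjusted 3.33e-05 and 2.86e-05), with r = 0.925 without 2 arrays and 0.895 within pool 1 and 0.981 within pool 2. Col4a3 and Col4a4 gave r = 0.884 and rho = 0.88 (permutation p 1e-05 and 1e-05, adjusted 3.33e-05 and 2.86e-05), with r = 0.854 without 2 arrays and 0.805 within pool 1 and 0.938 within pool 2. Nid1 and Nid2 gave r = 0.818 and rho = 0.809 (permutation p 1e-05 and 1e-05, adjusted 3.33e-05 and 2.86e-05), with r = 0.796 without 2 arrays and 0.864 within pool 1 and 0.882 within pool 2. Itga8 and its beta chain Itgb1 gave r = 0.706 and rho = 0.604 (permutation p 0.00025 and 0.00396, adjusted 0.0005 and 0.0072), with r = 0.576 without 2 arrays and 0.676 within pool 1 and 0.787 within pool 2. Most genes of these pairs followed the component described above, Col4a4 less so (r = 0.393). The part of that component in these correlations was not tested, so the values do not single out partner chains.

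Other partners did not pass. Itgb6 and Itgav gave r = 0.294 and rho = 0.302 (permutation p 0.185 and 0.172, adjusted 0.231 and 0.214), with r = 0.514 without 2 arrays and 0.105 within pool 1 and 0.444 within pool 2. Itga6 and Itgb4 gave r = -0.149 and rho = -0.226 (permutation p 0.509 and 0.307, adjusted 0.565 and 0.361), with r = -0.0211 without 2 arrays and 0.0556 within pool 1 and -0.264 within pool 2. Col5a1 and Col5a2, chains of 1 trimer, gave r = 0.0615 and rho = 0.0988 (permutation p 0.79 and 0.662, adjusted 0.829 and 0.697), with r = 0.0483 without 2 arrays and -0.161 within pool 1 and 0.151 within pool 2. In all 14 of the 20 pairs passed at an adjusted p under 0.05.

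The genes that process, bind and remodel this matrix were counted from lists made beside the members. Of 20 collagen-modifying enzymes 1 was higher in KO, Plod2, a lysyl hydroxylase (0.43 ± 0.066, adjusted p = 0.000196), and 0 were lower. Rhythmic there were P4ha1, Plod2 and Serpinh1 in WT and Loxl4 and Serpinh1 in KO. Serpinh1, the collagen chaperone, had amplitudes of 0.28 ± 0.055 in WT and 0.27 ± 0.055 in KO with peaks at 19.6 h and 19.4 h. Of 28 proteoglycans and glycoproteins 4 were higher (Npnt, Sparcl1, Frem2 and Hspg2) and 1 lower, Tnxb, a tenascin (-0.32 ± 0.044, adjusted p = 6.93e-05). Hspg2, the basement membrane proteoglycan perlecan, differed by 0.20 ± 0.053 (adjusted p = 0.0211), and Frem2, of the embryonic and collecting system basement membrane, by 0.27 ± 0.066 (adjusted p = 0.0119).

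Of 13 metalloproteinases and inhibitors 2 were higher, Mmp14 (0.29 ± 0.059, adjusted p = 0.00343), a membrane collagenase, and Mmp2 (0.26 ± 0.071, adjusted p = 0.0216), a type IV collagenase that Mmp14 activates. Of 9 non-integrin matrix receptors 3 were higher, the laminin receptors Bcam (0.16 ± 0.031) and Dag1 (0.12 ± 0.036) and the syndecan Sdc4 (0.14 ± 0.034), and 2 syndecans were lower, Sdc2 (-0.27 ± 0.054) and Sdc1 (-0.16 ± 0.044). Of 17 adhesion adaptors 1 was higher, the kindlin Fermt1 (0.27 ± 0.064), and 2 were lower, Tns1 (-0.16 ± 0.048) and Zyx (-0.13 ± 0.041). Of 19 genes of the transforming growth factor beta pathway 0 were higher and 3 lower: Tgfbi (-0.33 ± 0.063), Ltbp4 (-0.23 ± 0.054) and Ccn2 (-0.23 ± 0.064). Adjusted p for these receptors, adaptors and pathway genes ran from 0.00162 to 0.047. Ccn2, the connective tissue growth factor, was also rhythmic in WT (amplitude 0.26 ± 0.063, peak 12.8 h, adjusted p = 0.0312). Of 6 letter-named integrin chains 0 were called for genotype.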

How the data were processed

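Per the submitters' processing notes, the authors used RMA, and the deposited log2 level of a probe set is its summary after background correction and quantile normalization. A shift shared by most genes is thereby removed. For RMA, the software version is not given in the sources used here. Of 35556 probe sets, 21789 carry 1 platform symbol, and the brightest set stood for each gene. Members and lists were chosen with earlier results of these data known.

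limma 3.58.1 in R 4.3.3 fitted a mean, cosine and sine (24 h) per genotype to all 22 arrays (16 residual degrees of freedom) and, for single times, 12 group means (10 residual degrees of freedom; a lone pool takes the spread of the other groups). Adjusted p are Benjamini-Hochberg over 14002 genes, called under 0.05. Errors after ± are standard errors. The number of arrays limits the precision, and there is no read depth. Named genes were members called in any test, Itgb6 and Itgav, partner pairs, the 3 brightest and 3 most variable members of a role as needed, and called genes of other lists. Others were named after their values were seen. The fit was tested on simulated data. Alternatives covered the filter, probe sets, scaling, pool block, free times, spread, weights and left-out arrays.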

Additional observations from a re-analysis of the deposited data

How the results depend on the processing

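In place of 10 members called for genotype, 20 were called with array weights (14 higher, 6 lower), 4 with pool 1 alone, 0 with pool 2 alone, 3 without the KO ZT20 pools and 3 without all ZT20 pools. In place of 6 WT rhythms, 2 were called with free means at each time, 2 with pool 1 alone and 0 with pool 2 alone. In place of 7 KO rhythms, the count was 3 with array medians subtracted, 1 with free means, 12 with array weights, 2 with KO fitted alone, and 0 without the KO ZT20 pools, without all ZT20 pools, and within pool 1 or pool 2. At ZT12 2 members were called, in place of 1, with medians subtracted or a trended spread, at ZT16 1 in place of 0 with a trended spread, and at ZT20 5 and 4 in place of 8 with a 30th percentile filter and with none. The share on the first component was 51.5% on values as deposited, 64.2% around group means and 59.9% with medians subtracted, in place of 56.1%. The cause was not tested, except that single-pool fits hold fewer arrays. The share of all genes called in these refits is not given, here or above. The changes in count are thus not shown to be particular to the members.

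Leaving out 1 array at a time gave 8 to 16 genotype calls, 4 to 9 WT rhythms, 1 to 14 KO rhythms, 0 to 2 calls at ZT12, 0 to 1 at ZT16, 0 to 8 at ZT20, 0 at the other times and 0 wave differences, and shares on the first component of 49.6% to 59.3%. WT rhythm calls were lowest (4) without WT ZT4 pool 2 or WT ZT12 pool 2, and highest (9) without KO ZT0 pool 2. Among the 32 tested member results, no genotype difference changed sign under an alternative tried. An amplitude cannot be negative, so direction says nothing about the rhythm results. Calls were lost under several alternatives, as given above. The call counts with 1 array left out likewise have no share of all genes beside them. Subtracting array medians moved the median difference of all genes to 0.035.

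The labels do not say that a pool number marks a shared source, and the values did not settle it. Differences between pools correlated from -0.413 to 0.548 over 45 pairs of groups, with 25 over 0.1, and 20 of 22 arrays correlated more with arrays of their own number. On the second component of all genes (14% of their residual variance), 11 of 12 pool 1 arrays lay above 0 and 10 of 10 pool 2 arrays below, a hint from the data and not the design. With the pool number as a replicate block, 10 members were called for genotype, 7 for WT rhythm, 7 for KO rhythm, 0 for the wave difference and 8 at ZT20, and the component share was 57.6%, and none of the 32 tested member results changed its call.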
